A study of Rattus norvegicus with 12 samples.

Results

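The semaphorins, plexins and neuropilins were taken as a family of ligands and receptors and described across bone from around rat implants. The 31 members were every gene whose symbol names a semaphorin of class 3 to 7 (20 genes), a plexin (9 genes) or a neuropilin (2 genes), out of 33801 genes in the deposited table. Of them, 27 reached 1 FPKM in at least 3 of 12 libraries and were tested, as were 15268 genes in all. Of these 27, Plxnb3 and Sema4g reached it only with loaded Nb3 alloy libraries counted, so the filter chose them on the group in which they were high, and counts are also given over the other 25. Sema3a, Sema3b, Sema3e and Sema5b did not reach that level in 3 libraries and are given as values. FPKM, the deposited unit, is a count of sequenced fragments per kilobase of gene, scaled by depth, so levels can be set side by side between genes on that scale.

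The study placed mini-implants at the upper first molar site of rats labelled WT and asked what cyclic loading does to gene expression in the bone around them. The implants were made of the alloy Zr58Cu25Al14Nb3, called Nb3 alloy here, or of titanium (cpTi), and bone of 4 mm diameter around each was used for RNA. The 4 groups had 3 libraries each. They were loaded Nb3 alloy (cyclic loading for 2 weeks), non-loaded Nb3 alloy (left static), loaded cpTi (cyclic loading for 2 weeks) and non-loaded cpTi (left static). All groups share the WT genotype, the site and an implant, and no bone without an implant is among the 12 libraries. The labels do not say that replicates came from separate animals, so p-values measure only the spread between these samples. In such bulk tissue, fewer cells of a type and less RNA per cell cannot be told apart.

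Semaphorins are secreted or membrane-bound signals that steer axons, vessels, immune cells and bone cells. Plexins are their main receptors, and most secreted semaphorins of class 3 need a neuropilin, which also binds vascular endothelial growth factors (VEGF), to hold them on the plexin. In bone, work in mice has tied Sema3a to fewer osteoclasts and more bone formation, Sema4d made by osteoclasts to restraint of osteoblasts through Plxnb1, and Sema6d with Plxna1 to osteoclast differentiation.

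Depth was 12.9 to 22.3 M reads on genes per library. Across all tested genes, correlations of loaded Nb3 alloy libraries with libraries of the other groups were 0.731 to 0.866, and those among the remaining 9 libraries were 0.932 to 0.969, so the loaded Nb3 alloy group lay apart. Mitochondrial genes took 11.3% to 24.3% of reads in loaded Nb3 alloy, highest in replicate 2, and 4.31% to 6.86% in the other libraries. Summed levels of marker lists moved with the same group. Neutrophil markers summed to 5.29 to 42.6 FPKM in loaded Nb3 alloy and to 1766 to 5139 FPKM in the other 9 libraries, and erythroid markers to 2.50 to 14.9 FPKM against 754 to 1747 FPKM. Endothelial markers summed to 249 to 437 FPKM in loaded Nb3 alloy against 82.8 to 128 FPKM elsewhere, smooth muscle and pericyte markers to 647 to 979 FPKM against 97.0 to 343 FPKM, and Schwann cell markers to 221 to 791 FPKM against 60.1 to 358 FPKM. Ligament and fibroblast markers summed to 994 to 1197 FPKM in loaded Nb3 alloy against 148 to 544 FPKM elsewhere (6 of 6 called higher with loading beside the Nb3 alloy), and cell cycle markers to 12.5 to 17.9 FPKM against 225 to 492 FPKM (6 of 6 called lower). Osteoclast markers overlapped, at 1059 to 4892 FPKM against 705 to 1896 FPKM (3 of 7 called higher). Of 6 neuron markers, 1 passed the filter (Tubb3), and 5 were at 0 in at least 1 library, while Ltf of the neutrophil list was at 0 in 9 of the 12 libraries. Osteoblast markers, which check the labelled tissue, summed to at least 2895 FPKM in every library. The part of these shifts in the results on loaded Nb3 alloy was not tested.

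Promoters of 2 members called higher and of the 2 called lower with loading beside the Nb3 alloy are shown, so that their sequence make-up can be set beside their levels. RefSeq promoters of build GRCr8, running from 250 bases before to 50 bases after the gene start, were found for 23 of the 31 members; the others were Plxna1, Plxna4, Sema3a, Sema3b, Sema3f, Sema4d, Sema4g and Sema5a. Those of Sema3c and Plxnd1, called higher in loaded Nb3 alloy, and of Sema4b and Plxnc1, called lower there, lie at chr4:18699578-18699877 on the minus strand for Sema3c, chr4:150715138-150715437 on the minus strand for Plxnd1, chr1:143558547-143558846 on the plus strand for Sema4b and chr7:31430556-31430855 on the minus strand for Plxnc1. Capitals mark the GC box GGGCGG on either strand (CCGCCC on the other) and, in Sema3c, the GATA site AGATAAG, which reads CTTATCT on the other strand.
Sema3c: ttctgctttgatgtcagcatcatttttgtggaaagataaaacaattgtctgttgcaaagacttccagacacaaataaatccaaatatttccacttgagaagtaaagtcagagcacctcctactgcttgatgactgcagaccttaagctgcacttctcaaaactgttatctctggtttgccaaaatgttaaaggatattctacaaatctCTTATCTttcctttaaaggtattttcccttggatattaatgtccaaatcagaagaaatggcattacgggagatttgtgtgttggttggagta
Plxnd1: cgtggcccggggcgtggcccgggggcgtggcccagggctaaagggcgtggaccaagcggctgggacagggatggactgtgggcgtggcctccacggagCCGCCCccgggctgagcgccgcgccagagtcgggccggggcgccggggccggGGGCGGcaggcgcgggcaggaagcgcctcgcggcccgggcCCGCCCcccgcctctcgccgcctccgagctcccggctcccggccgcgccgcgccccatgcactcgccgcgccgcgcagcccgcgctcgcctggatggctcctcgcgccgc
Sema4b: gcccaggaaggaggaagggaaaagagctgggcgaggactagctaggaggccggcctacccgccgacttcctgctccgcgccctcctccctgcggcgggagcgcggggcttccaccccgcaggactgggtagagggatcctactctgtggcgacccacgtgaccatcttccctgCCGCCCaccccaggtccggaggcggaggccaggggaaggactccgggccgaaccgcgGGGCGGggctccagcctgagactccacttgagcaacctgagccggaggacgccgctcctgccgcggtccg
Plxnc1: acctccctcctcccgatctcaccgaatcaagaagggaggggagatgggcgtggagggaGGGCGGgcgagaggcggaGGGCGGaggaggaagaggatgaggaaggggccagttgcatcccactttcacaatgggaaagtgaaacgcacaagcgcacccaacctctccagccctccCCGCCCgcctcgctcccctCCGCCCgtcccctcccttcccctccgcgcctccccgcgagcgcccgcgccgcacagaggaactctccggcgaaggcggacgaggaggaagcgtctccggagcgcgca
The Sema3c promoter holds 1 CpG and 36.3% G and C, while that of Plxnd1 holds 48 CpG and 83.0% G and C. Sema4b has 27 CpG and Plxnc1 has 30 CpG in the same length, so a CpG-rich promoter stands on members of both directions. The median was 16 CpG over the 23 members and 7 CpG over 33469 promoters. A GC box was present in 13 of 23 member promoters (56.5%) and in 33.1% of all promoters of that length. It was in 5 of 9 members called higher and in 2 of 2 called lower. The 9 include Plxnb3, which the filter chose and whose promoter holds no GC box. The GATA site was in 1 member, Sema3c, and in 2.87% of all promoters, and the RUNX site TGTGGTT was in 2 members, Sema6b and Sema7a, and in 5.57%. The ETS site CCGGAAG was in Plxnb1 alone of the 23 and in 8.75% of all promoters. The letters of a TATA box (TATAAA) and of an AP-1 site (TGANTCA) were in 0 of the 23, against 14.2% and 7.33% of all promoters. Every motif was searched on both strands, a match is a description of letters only, and CpG content differs between members and all promoters as given above.

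By mean level over the 12 libraries, Nrp2 was the most abundant member, followed by Plxnd1, Sema7a, Plxnb2, Sema4a and Nrp1. Neighbours in that order overlapped across libraries: Nrp2 ranged from 27.03 to 78.4 FPKM, Plxnd1 from 24.8 to 95.6 FPKM and Sema7a from 21.7 to 81.8 FPKM. The leading member changed with the group. Plxnd1 ranked highest by mean in loaded Nb3 alloy (76.2 ± 17.7 FPKM, SD, n = 3), Sema4a in non-loaded Nb3 alloy (44.1 ± 12.7 FPKM), Nrp2 in loaded cpTi (56.96 ± 12.3 FPKM) and Plxnd1 in non-loaded cpTi (39.2 ± 3.23 FPKM). The 20 semaphorins together summed to 277 ± 5.55 FPKM in loaded Nb3 alloy, 198 ± 24.1 FPKM in non-loaded Nb3 alloy, 189.8 ± 40.3 FPKM in loaded cpTi and 177 ± 19.0 FPKM in non-loaded cpTi (SD, n = 3 each). The 9 plexins summed to 158 ± 16.5, 101.5 ± 18.6, 109 ± 12.3 and 96.9 ± 1.49 FPKM in the same 4 groups. Class 3 semaphorins, the secreted ones, summed to 58.1 ± 14.8 FPKM in loaded Nb3 alloy and to 20.0 ± 5.40 FPKM in non-loaded Nb3 alloy, without overlap between libraries.

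**Figure D1:**
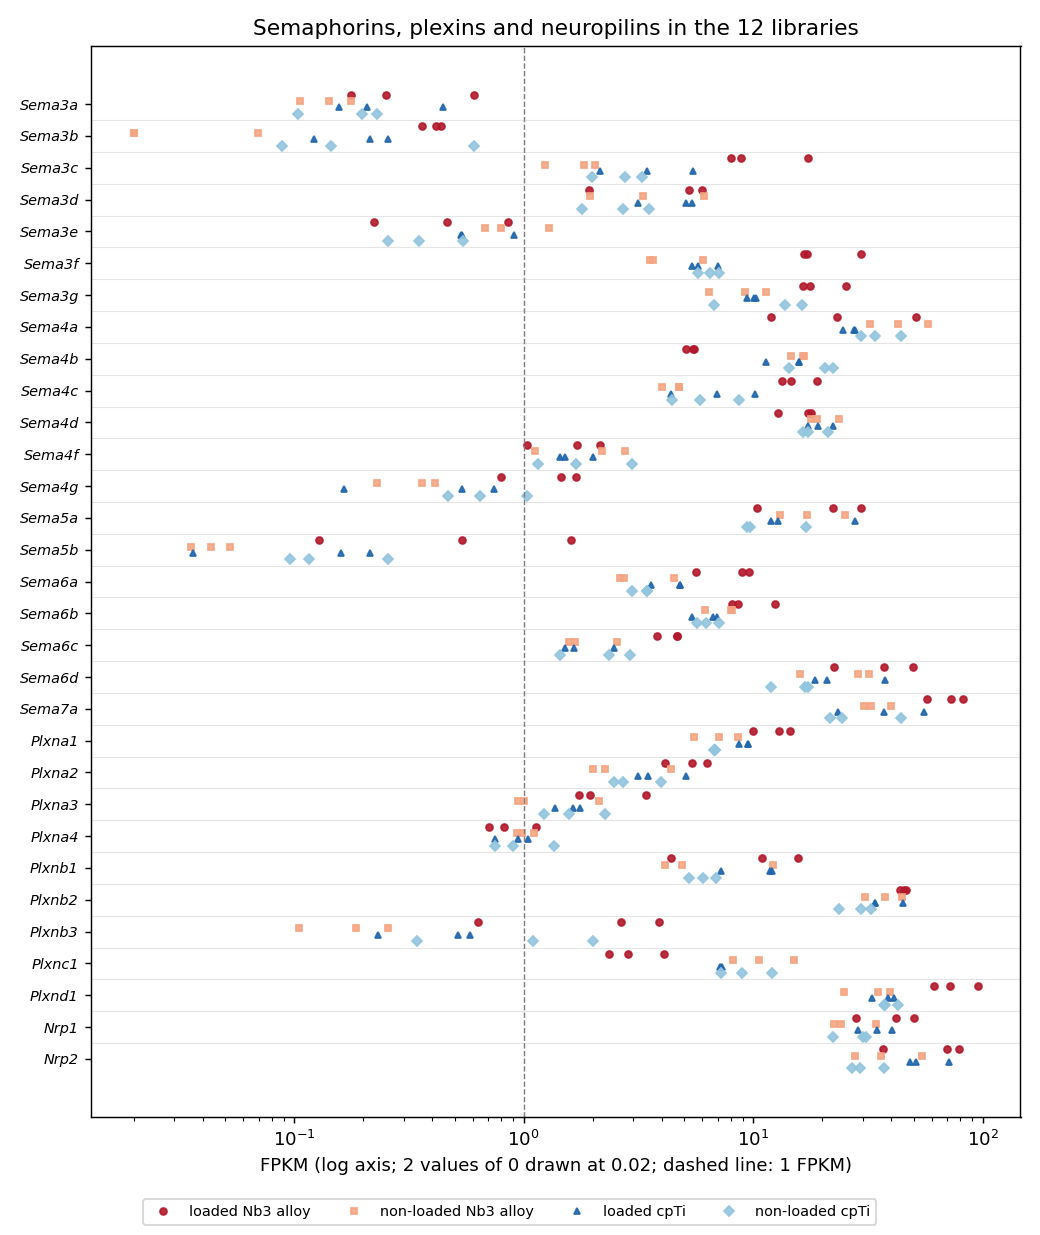
FPKM of each of the 31 members in each of the 12 libraries on a log axis, 1 row per gene and 1 symbol per group, with values of 0 drawn at 0.02. Loaded Nb3 alloy lies to the right of the other groups for Sema3c, Sema3f, Sema4c, Plxnd1 and Sema7a, and to the left for Sema4b and Plxnc1.

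With loading beside the Nb3 alloy, 12 of the 27 tested members rose and 2 fell, by limma at a Benjamini-Hochberg adjusted p under 0.05. Of all 15268 tested genes, 20.7% were called higher and 25.2% lower (45.8% in either direction). In either direction 14 of the 27 members were called, so the share called was near that background. The 12 include Plxnb3 and Sema4g, which passed the filter only with loaded Nb3 alloy libraries counted. Of the other 25 members, 10 rose and 2 fell. By family, 7 of 15 semaphorins among the 25 rose and 1 fell, 3 of 8 plexins rose and 1 fell, and 0 of 2 neuropilins were called. The median log2 difference was 0.51 over the 25 members, 0.54 over the 27 and -0.02 over all tested genes. Scaling by total reads moved the median of all genes to -0.17 and gave 10 members higher and 4 lower. Libraries of the groups did not overlap for 10 of the 25 that were higher and 3 that were lower, against 22.9% and 28% of all tested genes. Differences here and below are on the log2(FPKM + 1) scale, loaded minus non-loaded or Nb3 alloy minus cpTi, and that scale understates the change of genes with low levels.

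Among the secreted class 3 ligands, Sema3f, Sema3c and Sema3g rose beside the loaded Nb3 alloy. Sema3f stood at 17.1, 29.6 and 16.6 FPKM in loaded Nb3 alloy and at 6.03, 3.65 and 3.54 FPKM in non-loaded Nb3 alloy. Beside cpTi, Sema3f stood at 5.74, 7.02 and 5.40 FPKM in loaded and at 5.74, 7.11 and 6.45 FPKM in non-loaded bone. All 3 loaded Nb3 alloy libraries were above the other 9, and replicate 2 was the highest. The difference for Sema3f, a ligand of Nrp2 known for repelling axons and vessels, was 2.01 (SE 0.23, adjusted p = 6.06e-05). Sema3c stood at 8.85, 17.4 and 7.99 FPKM in loaded Nb3 alloy and at 1.24, 2.05 and 1.82 FPKM in non-loaded Nb3 alloy. Beside cpTi, Sema3c stood at 2.16, 5.47 and 3.44 FPKM in loaded and at 1.98, 2.77 and 3.28 FPKM in non-loaded bone. Again the 3 loaded Nb3 alloy libraries lay above all others, and replicate 2 had about as much as replicates 1 and 3 together. For Sema3c, which signals through neuropilins with Plxnd1 or A plexins in heart outflow development, the difference was 2.13 (SE 0.31, adjusted p = 0.000279). Sema3g stood at 16.5, 25.4 and 17.8 FPKM in loaded Nb3 alloy and at 11.3, 6.44 and 9.25 FPKM in non-loaded Nb3 alloy. Beside cpTi, Sema3g stood at 10.04, 10.3 and 9.38 FPKM in loaded and at 13.7, 16.4 and 6.78 FPKM in non-loaded bone. The Nb3 alloy groups did not overlap, while non-loaded cpTi replicate 2 came just below the lowest loaded Nb3 alloy library. Sema3g, known in mouse as a ligand made by endothelium, differed by 1.07 (SE 0.29, adjusted p = 0.0102).

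The remaining class 3 members were not called. Sema3d, which acts through neuropilins in heart development, ranged over 1.92 to 6.003 FPKM in loaded and 1.95 to 6.11 FPKM in non-loaded Nb3 alloy, with a difference of 0.17 (adjusted p = 0.747). Sema3a ranged over 0.176 to 0.608 FPKM in loaded and 0.106 to 0.177 FPKM in non-loaded Nb3 alloy, and Sema3e, the direct ligand of Plxnd1, over 0.223 to 0.853 FPKM and 0.680 to 1.29 FPKM. Sema3b had 22, 20 and 22 reads in loaded Nb3 alloy and 0, 0 and 3 reads in non-loaded Nb3 alloy, against 11, 6 and 11 reads in loaded cpTi and 7, 25 and 4 reads in non-loaded cpTi. Sema3b shares its strand with an overlapping gene, Lsmem2, which reached 2.52 FPKM, so the source of so few reads is uncertain. Without the filter on low values, Sema3b was called (0.46, adjusted p = 0.0323), while Sema3a (adjusted p = 0.270) and Sema3e (adjusted p = 0.222) were not.

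In class 4, the membrane-bound semaphorins that mostly bind B plexins, members moved in opposite directions. Sema4c stood at 13.4, 14.7 and 19.03 FPKM in loaded Nb3 alloy and at 4.75, 4.75 and 3.999 FPKM in non-loaded Nb3 alloy. Beside cpTi, Sema4c stood at 4.40, 10.2 and 6.96 FPKM in loaded and at 5.89, 8.69 and 4.44 FPKM in non-loaded bone. The 3 loaded Nb3 alloy libraries were above all others. Sema4c, a ligand of Plxnb2, differed by 1.59 (SE 0.27, adjusted p = 0.000715). Sema4b stood at 5.54, 5.09 and 5.48 FPKM in loaded Nb3 alloy and at 16.7, 14.6 and 16.5 FPKM in non-loaded Nb3 alloy. Beside cpTi, Sema4b stood at 15.8, 11.4 and 15.9 FPKM in loaded and at 20.6, 22.2 and 14.3 FPKM in non-loaded bone. Here loaded Nb3 alloy was the lowest group, its 3 libraries were nearly equal, and every other library stood higher. The difference for Sema4b was -1.41 (SE 0.17, adjusted p = 8.21e-05). Sema4g stood at 0.799, 1.69 and 1.45 FPKM in loaded Nb3 alloy and at 0.360, 0.230 and 0.412 FPKM in non-loaded Nb3 alloy. Beside cpTi, Sema4g stood at 0.165, 0.745 and 0.539 FPKM in loaded and at 0.646, 1.03 and 0.470 FPKM in non-loaded bone. The Nb3 alloy groups did not overlap, but loaded Nb3 alloy replicate 1 lay within the range of cpTi. Sema4g, a low member, reached 1 FPKM in 3 libraries, 2 of them loaded Nb3 alloy, so its test after the filter is not used as evidence. Its difference was 0.78, and with no filter on any gene the adjusted p was 0.0187. Without non-loaded Nb3 alloy replicate 2 the difference was 0.72 (adjusted p = 0.0557, after the filter).

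The other class 4 members were not called. Sema4a, which costimulates T cells in mouse, ranged over 12.01 to 50.96 FPKM in loaded and 32.2 to 57.5 FPKM in non-loaded Nb3 alloy, with a difference of -0.79 (adjusted p = 0.129). Loaded Nb3 alloy replicate 2 held the highest of its group, and without that library Sema4a was called lower at -1.31 (adjusted p = 0.00458). Sema4d, the Plxnb1 ligand, ranged over 12.9 to 17.8 FPKM in loaded and 17.9 to 23.7 FPKM in non-loaded Nb3 alloy. Those ranges just failed to overlap, and the difference was -0.32 (adjusted p = 0.132). With scaling by total reads, Sema4a was called lower at -0.97 (adjusted p = 0.0391) and Sema4d at -0.49 (adjusted p = 0.0266). Sema4f ranged over 1.03 to 2.15 FPKM in loaded and 1.12 to 2.76 FPKM in non-loaded Nb3 alloy and differed by -0.19 (adjusted p = 0.609).

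Of the membrane-bound classes 5 and 6, Sema6a and Sema6c rose. Sema6a stood at 5.61, 8.90 and 9.58 FPKM in loaded Nb3 alloy and at 4.52, 2.64 and 2.73 FPKM in non-loaded Nb3 alloy. Beside cpTi, Sema6a stood at 4.82, 4.81 and 3.57 FPKM in loaded and at 3.43, 2.96 and 3.45 FPKM in non-loaded bone. Every loaded Nb3 alloy library was above the other 9. Sema6a, a ligand of Plxna2 and Plxna4, differed by 1.07 (SE 0.21, adjusted p = 0.00209). Sema6c stood at 4.65, 3.81 and 4.67 FPKM in loaded Nb3 alloy and at 2.55, 1.67 and 1.58 FPKM in non-loaded Nb3 alloy. Beside cpTi, Sema6c stood at 1.52, 2.48 and 1.65 FPKM in loaded and at 2.35, 2.91 and 1.44 FPKM in non-loaded bone. Loaded Nb3 alloy again lay above all other libraries, and replicate 2 was the lowest of the 3. The difference for Sema6c was 0.89 (SE 0.21, adjusted p = 0.00599). Sema6b stood at 8.06, 12.4 and 8.58 FPKM in loaded Nb3 alloy and at 8.03, 6.16 and 8.06 FPKM in non-loaded Nb3 alloy. Beside cpTi, Sema6b stood at 6.71, 6.96 and 5.42 FPKM in loaded and at 7.12, 6.21 and 5.72 FPKM in non-loaded bone. Loaded Nb3 alloy replicate 1 was level with the highest non-loaded ones, and Sema6b was not called for loading (0.33, SE 0.17, adjusted p = 0.140). With quantile normalization Sema6b was called (0.42, adjusted p = 0.0499). Sema6d, the Plxna1 ligand, ranged over 22.5 to 49.9 FPKM in loaded and 15.996 to 32.1 FPKM in non-loaded Nb3 alloy, with a difference of 0.48 (adjusted p = 0.280). Sema5a, a semaphorin with thrombospondin repeats, ranged over 10.4 to 29.4 FPKM and 13.1 to 25.2 FPKM in those groups and differed by 0.09 (adjusted p = 0.875). Sema5b, its low relative, ranged over 0.129 to 1.61 FPKM in loaded and 0.0356 to 0.0526 FPKM in non-loaded Nb3 alloy and was not tested.

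Sema7a, the semaphorin anchored by a lipid, and its receptor Plxnc1 moved in opposite directions. Sema7a stood at 81.8, 56.98 and 72.7 FPKM in loaded Nb3 alloy and at 39.7, 30.5 and 32.5 FPKM in non-loaded Nb3 alloy. Beside cpTi, Sema7a stood at 23.5, 55.3 and 37.2 FPKM in loaded and at 21.7, 43.99 and 24.4 FPKM in non-loaded bone. The Nb3 alloy groups did not overlap, and loaded cpTi replicate 2 came close to the lowest loaded Nb3 alloy library. Sema7a, which also acts through integrin beta-1, differed by 1.01 (SE 0.31, adjusted p = 0.0212). It was no longer called without loaded Nb3 alloy replicate 1 or 3 or non-loaded Nb3 alloy replicate 2 or 3, at 0.90 to 0.98 (adjusted p = 0.0514 to 0.0709), nor with scaling by total reads at 0.83 (adjusted p = 0.0710). Plxnc1 stood at 2.84, 4.09 and 2.36 FPKM in loaded Nb3 alloy and at 10.6, 8.14 and 15.1 FPKM in non-loaded Nb3 alloy. Beside cpTi, Plxnc1 stood at 7.28, 7.15 and 7.22 FPKM in loaded and at 12.1, 8.92 and 7.25 FPKM in non-loaded bone. Each loaded Nb3 alloy library was below the other 9. Plxnc1, found on leukocytes, differed by -1.56 (SE 0.23, adjusted p = 0.000307). Of the blood cell marker lists, 7 of 7 tested neutrophil markers and 6 of 6 B lineage markers were called lower in the same comparison, while 2 of 7 macrophage and 3 of 6 T lineage markers were called higher and none lower. Their part in the fall of Plxnc1 was not tested.

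**Figure D2:**
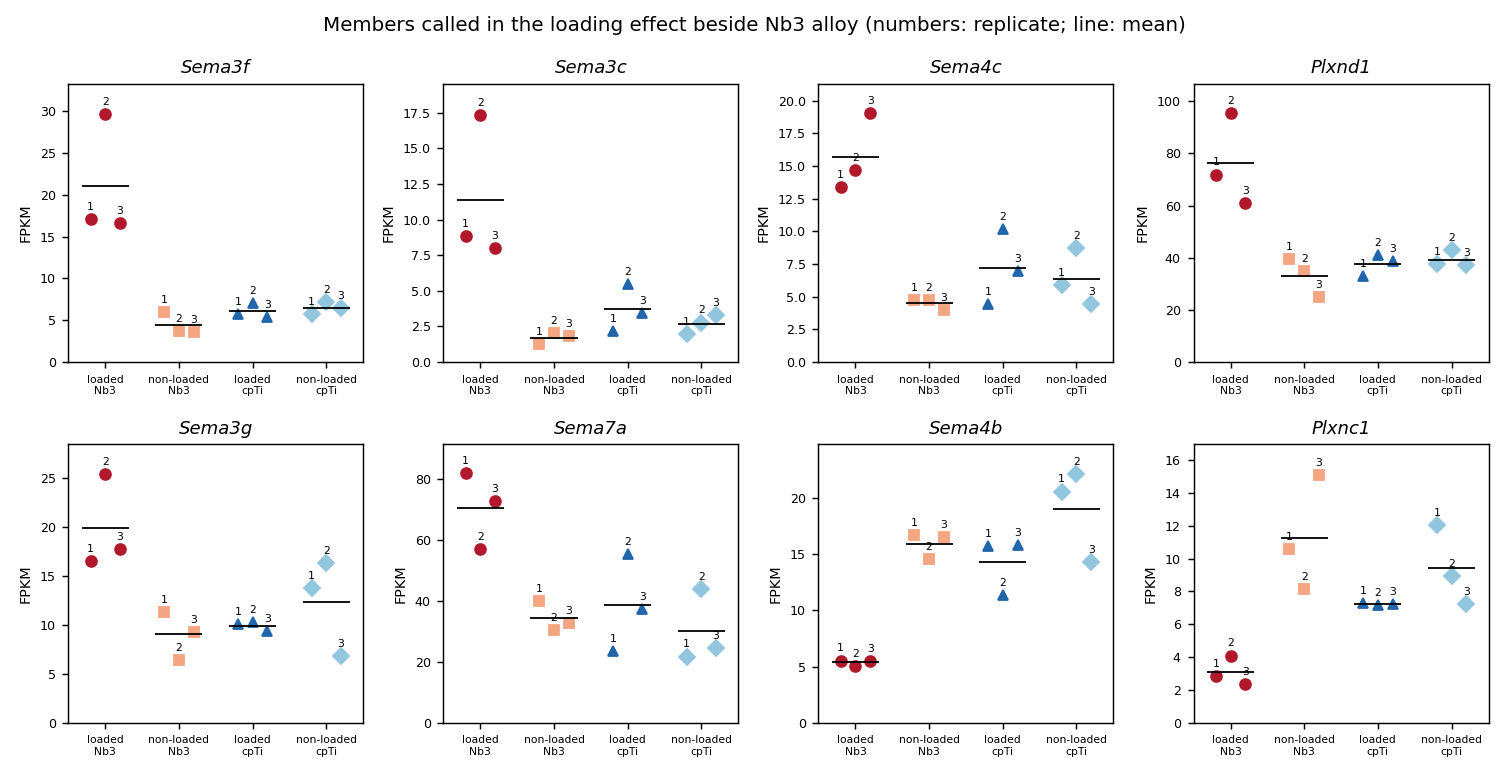
FPKM of 8 members called for loading beside the Nb3 alloy, 1 panel per gene, in the 4 groups; each point is a library with its replicate number and the line is the group mean. Loaded Nb3 alloy lies highest in 6 panels, while Sema4b and Plxnc1 are lowest there, at 5.09 to 5.54 FPKM and 2.36 to 4.09 FPKM.

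Plxnd1 rose, as did Plxna1 and Plxna2. By mean over the 12 libraries Plxnd1 was the most abundant plexin, although Plxnb2 averaged more in non-loaded Nb3 alloy (37.6 ± 6.77 against 33.1 ± 7.54 FPKM, SD, n = 3) and about the same in loaded cpTi (37.6 ± 6.36 against 37.5 ± 4.16 FPKM). Plxnd1 stood at 71.9, 95.6 and 61.1 FPKM in loaded Nb3 alloy and at 39.6, 34.8 and 24.8 FPKM in non-loaded Nb3 alloy. Beside cpTi, Plxnd1 stood at 32.9, 40.9 and 38.7 FPKM in loaded and at 37.6, 42.9 and 37.02 FPKM in non-loaded bone. The 3 loaded Nb3 alloy libraries were above the other 9, which overlapped each other. Plxnd1, a plexin of endothelium and other cells that binds Sema3e directly, differed by 1.18 (SE 0.20, adjusted p = 0.000661). In the same comparison 6 of 7 tested endothelial markers were called higher, and their part in this result was not tested. Plxna1 stood at 12.9, 14.5 and 9.99 FPKM in loaded Nb3 alloy and at 8.58, 5.50 and 7.12 FPKM in non-loaded Nb3 alloy. Beside cpTi, Plxna1 stood at 8.70, 9.53 and 9.53 FPKM in loaded and at 6.84, 6.79 and 6.73 FPKM in non-loaded bone. For Plxna1, a partner of neuropilins and receptor of Sema6d, every loaded library of either material was above every non-loaded one, with non-loaded Nb3 alloy replicate 1 close below the lowest loaded cpTi library. The difference beside the Nb3 alloy was 0.74 (SE 0.16, adjusted p = 0.00307).

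Plxna2 stood at 4.15, 5.41 and 6.31 FPKM in loaded Nb3 alloy and at 4.40, 2.26 and 2.01 FPKM in non-loaded Nb3 alloy. Beside cpTi, Plxna2 stood at 3.14, 5.10 and 3.47 FPKM in loaded and at 2.48, 2.70 and 3.96 FPKM in non-loaded bone. Loaded Nb3 alloy replicate 1 was lower than non-loaded Nb3 alloy replicate 1, so the groups overlapped. Plxna2, a receptor of class 6 semaphorins, differed by 0.73 (SE 0.25, adjusted p = 0.0351), and by 0.57 to 0.71 (adjusted p = 0.0708 to 0.131) without loaded Nb3 alloy replicate 2 or 3 or non-loaded Nb3 alloy replicate 2 or 3. It was not called either with scaling by total reads, no filter or the compared groups alone (0.58 to 0.73, adjusted p = 0.0579 to 0.0992). Plxnb3 stood at 0.632, 3.88 and 2.66 FPKM in loaded Nb3 alloy and at 0.106, 0.257 and 0.186 FPKM in non-loaded Nb3 alloy. Beside cpTi, Plxnb3 stood at 0.233, 0.585 and 0.516 FPKM in loaded and at 1.10, 1.999 and 0.342 FPKM in non-loaded bone. Loaded Nb3 alloy spread widely, and its replicate 1 lay inside the cpTi range, while non-loaded Nb3 alloy was the lowest group. Plxnb3, a receptor of Sema5a, reached 1 FPKM in 4 libraries, 2 of them loaded Nb3 alloy, so its test after the filter is not used as evidence. Its difference was 1.38, and with no filter on any gene the adjusted p was 0.0220. In the same comparison 6 of 6 Schwann cell markers were called higher, and their part in this result was not tested.

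The other A and B plexins were not called. Plxnb2, the receptor of Sema4c, ranged over 43.6 to 46.2 FPKM in loaded and 30.8 to 44.3 FPKM in non-loaded Nb3 alloy (difference 0.27, adjusted p = 0.210). Plxnb1, the receptor of Sema4d, ranged over 4.40 to 15.7 FPKM and 4.11 to 12.2 FPKM in those groups (difference 0.48, adjusted p = 0.381). Plxna3, a neuropilin partner, stood at 1.74 to 3.40 FPKM in loaded and 0.945 to 2.12 FPKM in non-loaded Nb3 alloy (difference 0.51, adjusted p = 0.111). Without non-loaded Nb3 alloy replicate 1, Plxna3 was called at 0.73 (adjusted p = 0.0342). Plxna4, a receptor of Sema6a, ranged over 0.706 to 1.13 FPKM and 0.939 to 1.11 FPKM (difference -0.10, adjusted p = 0.675).

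The co-receptors were abundant but were not called. Nrp2 stood at 78.4, 36.9 and 69.98 FPKM in loaded Nb3 alloy and at 54.1, 35.9 and 27.6 FPKM in non-loaded Nb3 alloy. Beside cpTi, Nrp2 stood at 51.4, 71.04 and 48.4 FPKM in loaded and at 29.2, 27.03 and 37.3 FPKM in non-loaded bone. Loaded Nb3 alloy replicate 2 lay far below replicates 1 and 3 and among the non-loaded libraries. Nrp2, which holds Sema3f and VEGF-C, differed by 0.63 (SE 0.30, adjusted p = 0.116) beside the Nb3 alloy, and without loaded Nb3 alloy replicate 2 it was called at 0.95 (adjusted p = 0.0143), as it was without non-loaded Nb3 alloy replicate 1 at 0.88 (adjusted p = 0.0415). Nrp1, which holds Sema3a and VEGF-A, ranged over 28.1 to 50.1 FPKM in loaded and 22.6 to 34.3 FPKM in non-loaded Nb3 alloy. Its difference was 0.54 (SE 0.23, adjusted p = 0.0815), and without loaded Nb3 alloy replicate 1 it was called at 0.77 (adjusted p = 0.0202), as it was without non-loaded Nb3 alloy replicate 1 at 0.72 (adjusted p = 0.0359).

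**Figure D3:**
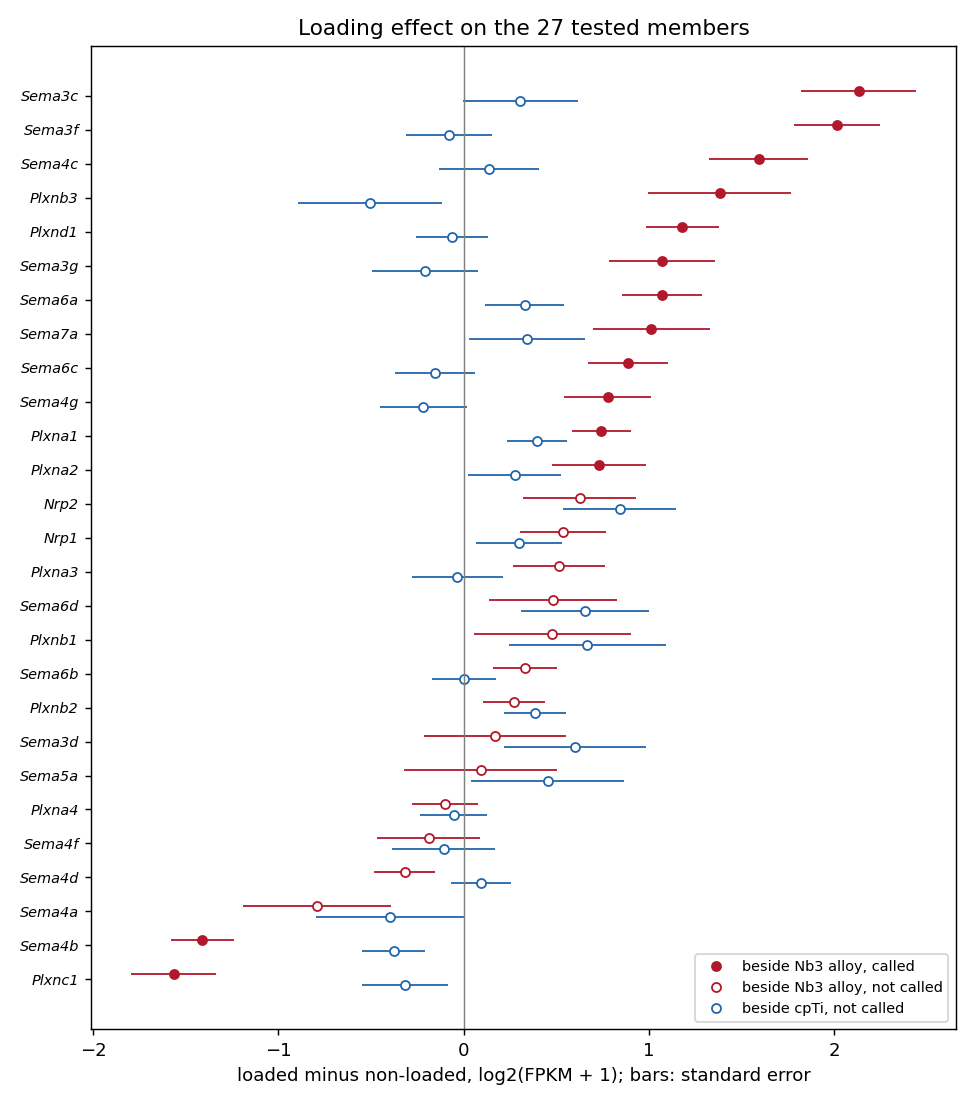
Loading effect on each of the 27 tested members as loaded minus non-loaded log2(FPKM + 1), with red for Nb3 alloy, blue for cpTi and bars for the standard error. Filled points are called at an adjusted p under 0.05, and Plxnb3 and Sema4g passed the filter only with loaded Nb3 alloy libraries counted. Filled points are present only for Nb3 alloy, from 2.13 (Sema3c) to -1.56 (Plxnc1), and the cpTi values lie between -0.50 and 0.84.

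Replicate 2 of loaded Nb3 alloy did not behave alike for all members. It was above both other replicates for 14 members, below both for 10 and between them for 7. Its level relative to the mean of replicates 1 and 3 was 0.33 for Plxnb1, 0.34 for Sema3d, 0.40 for Sema5a, 0.50 for Nrp2 and 0.52 for Sema6d, the lowest tested members, and 2.89 for Sema4a, 2.36 for Plxnb3 and 2.06 for Sema3c, the highest tested ones. Sp7, a transcription factor of osteoblasts, stood at 47.1, 11.97 and 56.9 FPKM in loaded Nb3 alloy, and the osteoblast marker list summed to 14449, 5964 and 16448 FPKM there. Osteoclast markers summed to 4892, 1059 and 3106 FPKM in the same libraries, and osteocyte markers to 2553, 635 and 2434 FPKM. All 3 lists were thus low in replicate 2, as were those 5 members, which were picked after their values were seen. Some other lists were highest in replicate 2. Among them, endothelial markers summed to 249, 437 and 310 FPKM in replicates 1, 2 and 3. Smooth muscle and pericyte markers summed to 647, 979 and 738 FPKM, and macrophage markers to 548, 652 and 315 FPKM. Epithelial markers summed to 4.69, 78.4 and 16.1 FPKM. Schwann cell markers, at 221, 539 and 791 FPKM, were between. The part of RNA from any of these cell types in the levels of the members was not tested.

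**Figure D4:**
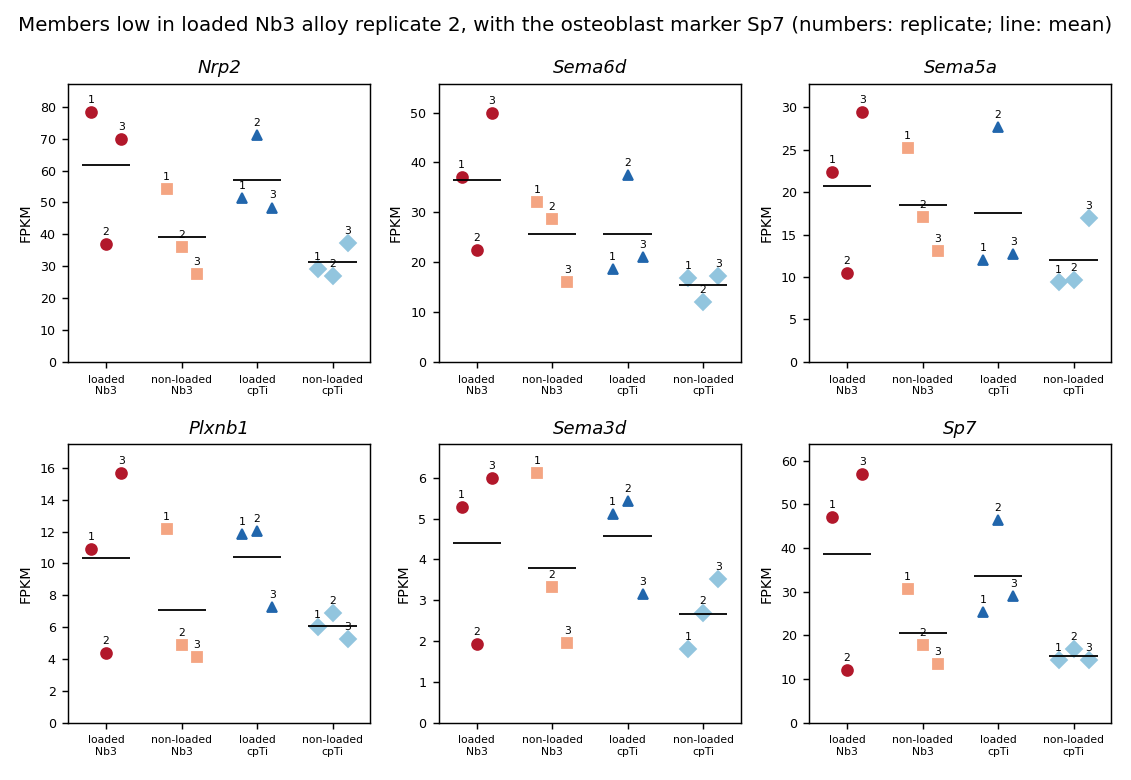
FPKM of Nrp2, Sema6d, Sema5a, Plxnb1 and Sema3d and of the osteoblast marker Sp7 in the 4 groups; each point is a library with its replicate number and the line is the group mean. In loaded Nb3 alloy, replicate 2 lies below replicates 1 and 3 in all 6 panels, for Nrp2 at 36.9 FPKM against 78.4 and 70.0 FPKM.

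Loading beside cpTi gave no called member. By limma, 0 of 27 members were called, against 1 gene of 15268 (0.00655%), and limma-voom on the recovered reads called 0 members and 0 genes. At an unadjusted p under 0.05 there were 4 members and 1062 genes. These 4 were Nrp2 (0.84, SE 0.30, adjusted p = 0.666), Plxna1 (0.40, SE 0.16, adjusted p = 0.689), Plxnb2 (0.38, SE 0.17, adjusted p = 0.704) and Sema4b (-0.38, SE 0.17, adjusted p = 0.708), none of which passed the correction. Over the 27 members, differences ran from -0.50 to 0.84 with a median of 0.10, beside -0.03 over all genes.

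Libraries of the cpTi groups did not overlap for 6 members that were higher with loading, Nrp2, Plxna1, Plxnb1, Plxnb2, Sema6a and Sema6d, and for 1 that was lower, Sema4a, against 7% and 9.4% of all tested genes. Sema6d ranged over 18.6 to 37.4 FPKM in loaded and 12.01 to 17.3 FPKM in non-loaded cpTi. Plxnb1 ranged over 7.23 to 12.04 FPKM in loaded and 5.24 to 6.89 FPKM in non-loaded cpTi. Osteoblast markers also summed higher in loaded cpTi, at 8870 to 10303 FPKM against 3120 to 5116 FPKM in non-loaded cpTi, with 0 of 7 called, and their part in these values was not tested. The 5 members with the largest positive differences beside the Nb3 alloy had differences of either sign here. They were picked by their size beside the Nb3 alloy, so smaller values here can follow from the picking alone. Plxnb3, which the filter chose, is among them. Sema3c differed by 0.31 (SE 0.31), Sema3f by -0.08 (SE 0.23), Sema4c by 0.14 (SE 0.27), Plxnb3 by -0.50 (SE 0.39) and Plxnd1 by -0.06 (SE 0.20). Plxnb3 had the lowest difference of the 27 members in this comparison.

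Whether loading acted differently beside the 2 materials was tested as the interaction, the loading difference in Nb3 alloy minus that in cpTi. It was called positive for 7 of 27 members and negative for 2, against 8.42% and 11.8% of all tested genes (20.2% in either direction), and with scaling by total reads for 4 and 2. Over the 25 members other than Plxnb3 and Sema4g it was called positive for 6 and negative for 2. The positive ones among the 25 were Sema3f (2.09, SE 0.33, adjusted p = 0.00166), Sema3c (1.83, SE 0.44, adjusted p = 0.0151), Sema4c (1.46, SE 0.38, adjusted p = 0.0212), Sema3g (1.28, SE 0.40, adjusted p = 0.0464), Plxnd1 (1.24, SE 0.28, adjusted p = 0.0109) and Sema6c (1.04, SE 0.30, adjusted p = 0.0336). For Plxnb3, which the filter chose, the value was 1.88, and with no filter on any gene it was not called (adjusted p = 0.0560). The negative ones were Plxnc1 (-1.25, SE 0.33, adjusted p = 0.0215) and Sema4b (-1.03, SE 0.24, adjusted p = 0.0128). Of the members called for loading beside the Nb3 alloy, Sema7a (0.67, adjusted p = 0.318), Sema6a (0.74, adjusted p = 0.113), Sema4g (0.99, adjusted p = 0.0557), Plxna1 (0.35, adjusted p = 0.311) and Plxna2 (0.45, adjusted p = 0.409) were not shown to respond differently. Of these, Sema6a was called without replicate 1 of loaded or of non-loaded Nb3 alloy (0.95 and 0.93), and Sema4g without loaded Nb3 alloy replicate 1 (1.17) or loaded cpTi replicate 2 (1.12). Quantile normalization (1.06, adjusted p = 0.0349) and limma-voom (adjusted p = 0.0380) also called Sema4g, which the filter chose. The calls of Sema3f, Sema3c, Plxnd1 and Sema4b held in every alternative run.

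The other interaction calls each depended on single libraries, and all of them except Plxnc1 also on another setting. Plxnc1 was not called without loaded cpTi replicate 1 or non-loaded cpTi replicate 2 or 3 (-1.24 to -1.09, adjusted p = 0.05003 to 0.0526). Sema4c was not called without non-loaded Nb3 alloy replicate 3 or non-loaded cpTi replicate 2 (1.23 to 1.39, adjusted p = 0.0507 to 0.0540), nor with scaling by total reads (1.28, adjusted p = 0.0505). Sema6c was lost when any of 8 libraries was left out (0.89 to 1.001), all except loaded Nb3 alloy replicate 2, non-loaded Nb3 alloy replicate 1, loaded cpTi replicate 2 and non-loaded cpTi replicate 3. It was also lost with scaling by total reads or no filter (0.90 to 1.04, adjusted p = 0.0553 to 0.0838). Plxnb3 was lost without any of 9 libraries (1.55 to 1.93), all except loaded Nb3 alloy replicate 1, loaded cpTi replicate 2 and non-loaded cpTi replicate 3. It was also lost with no filter (1.88, adjusted p = 0.0560) and with limma-voom. The limma-voom value, on the log2 scale of reads, was 4.51 (adjusted p = 0.0571). Sema3g was lost without any of 10 (1.04 to 1.39), all except non-loaded Nb3 alloy replicate 1 and non-loaded cpTi replicate 3, and with scaling by total reads or no filter (1.10 to 1.28, adjusted p = 0.0553 to 0.0828).

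Under loading, Nb3 alloy and cpTi differed for 12 of the 27 tested members. Of them, 10 were higher beside the Nb3 alloy and 2 lower, against 14.7% and 18.9% of all tested genes (33.6% in either direction). Over the 25 members other than Plxnb3 and Sema4g, 9 were higher and 2 lower. Scaling by total reads gave 6 and 2 of the 27. Differences had a median of 0.34 over the 25, 0.36 over the 27 and -0.01 over all genes. This comparison shares the loaded Nb3 alloy libraries with the loading effect in that material, so the 2 sets of calls are not independent. Higher were the ligands Sema3f (1.60, SE 0.23, adjusted p = 0.000479), Sema3c (1.39, SE 0.31, adjusted p = 0.00618), Sema4c (1.08, SE 0.27, adjusted p = 0.0106), Sema3g (0.92, SE 0.29, adjusted p = 0.0296), Sema7a (0.92, SE 0.31, adjusted p = 0.0433), Sema6c (0.91, SE 0.21, adjusted p = 0.00791), Sema6a (0.72, SE 0.21, adjusted p = 0.0246) and Sema6b (0.52, SE 0.17, adjusted p = 0.0377). The receptor Plxnd1 (0.98, SE 0.20, adjusted p = 0.00329) was higher too. For Plxnb3, which the filter chose, the value was 1.10, and with no filter on any gene it was not called (adjusted p = 0.0759). Lower were Sema4b (-1.25, SE 0.17, adjusted p = 0.000313) and Plxnc1 (-1.03, SE 0.23, adjusted p = 0.00646). Sema6b, which binds Plxna4, was called here and not for loading: its loaded Nb3 alloy libraries were all above the loaded cpTi ones. Libraries of the groups did not overlap for 10 higher members of the 25, against 21% of all tested genes, and for 2 lower members, against 25.5%.

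Of these calls, 7 of 12 held in every alternative run, and 5 did not. Sema3g was not called without loaded Nb3 alloy replicate 2 or loaded cpTi replicate 1, 2 or 3 (0.73 to 0.94, adjusted p = 0.0570 to 0.0902), nor with no filter (0.92, adjusted p = 0.0531). Sema6a was not called without loaded Nb3 alloy replicate 2 or 3 or loaded cpTi replicate 3 (0.59 to 0.64, adjusted p = 0.0674 to 0.0957), nor with scaling by total reads or the compared groups alone (0.57 to 0.72, adjusted p = 0.0526 to 0.0656). Sema6b was not called without loaded Nb3 alloy replicate 2 or loaded cpTi replicate 1 or 3 (0.35 to 0.56, adjusted p = 0.0715 to 0.137), nor with scaling by total reads, no filter or the compared groups alone (0.36 to 0.52, adjusted p = 0.0604 to 0.0854). Plxnb3 was not called without loaded Nb3 alloy replicate 2 or 3, non-loaded Nb3 alloy replicate 1, 2 or 3, loaded cpTi replicate 1, 2 or 3 or non-loaded cpTi replicate 1 (0.77 to 1.17, adjusted p = 0.0606 to 0.157), nor with scaling by total reads or no filter (0.99 to 1.10, adjusted p = 0.0597 to 0.0759). Plxnb3 was not called either with limma-voom (2.17, adjusted p = 0.0829) or a pseudocount of 0.1 (1.95, adjusted p = 0.0612), whose values are on other log2 scales. Sema7a was not called without loaded Nb3 alloy replicate 1 or 3, non-loaded Nb3 alloy replicate 1, 2 or 3, loaded cpTi replicate 1 or 3 or non-loaded cpTi replicate 3 (0.61 to 0.93, adjusted p = 0.0517 to 0.167), nor with scaling by total reads, quantile normalization, no filter or the compared groups alone (0.74 to 0.92, adjusted p = 0.0723 to 0.125). Of members not called, Plxna1 was called without loaded Nb3 alloy replicate 3 (0.52, adjusted p = 0.0306), and Sema4g without loaded Nb3 alloy replicate 1 (0.81, adjusted p = 0.0336) or loaded cpTi replicate 2 (0.77, adjusted p = 0.0466). Quantile normalization also called Plxna1 (0.45, adjusted p = 0.0343) and Sema4g (0.84, adjusted p = 0.0133). Sema4g, which the filter chose, was called with limma-voom as well (adjusted p = 0.0356).

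Without loading, the 2 materials gave 0 called members of 27 by limma, with 0% of all genes called, and 0 by limma-voom. At an unadjusted p under 0.05 there was 1 member, Plxnb2 (0.38, SE 0.17, adjusted p = 1), and 470 genes. Differences ran from -0.79 (Plxnb3) to 0.66 (Sema6d), with a median of 0.02 over the members. Libraries did not overlap for 2 members that were lower beside the Nb3 alloy, Plxnb3 and Sema4g, against 4.41% of all tested genes, and for 0 that were higher, against 2.88%. Plxnb3 and Sema4g are the members that the filter chose. Non-loaded cpTi, the higher group here, also held libraries of both at 1 FPKM or more. Of the other 25 members, 0 were higher and 0 lower without overlap. In non-loaded Nb3 alloy, Plxnb3 reached at most 0.257 FPKM and Sema4g at most 0.412 FPKM.

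Genes that work with the family were read from lists drawn up by function. Of 12 tested co-receptors and other semaphorin receptors, 5 rose and 1 fell with loading beside the Nb3 alloy, or 41.7% and 8.33%, where 20.7% and 25.2% of all tested genes did. In either direction that is 50% beside 45.8% of all tested genes, so the share called was near the background. Trem2 averaged 23.2 ± 7.01 FPKM in loaded Nb3 alloy and 4.85 ± 1.30 FPKM in non-loaded Nb3 alloy (SD, n = 3 each), a difference of 2.03 (SE 0.26, adjusted p = 0.000138); Trem2 is the myeloid receptor that joins the Plxna1 complex in mouse. In the same comparison 3 of 7 osteoclast and 2 of 7 macrophage markers were called higher, and their part in this result was not tested. Itgb1 averaged 164 ± 11.6 FPKM in loaded Nb3 alloy and 86.2 ± 6.42 FPKM in non-loaded Nb3 alloy, a difference of 0.92 (SE 0.13, adjusted p = 0.000192); it encodes integrin beta-1, a receptor of Sema7a. Cd72 averaged 5.84 ± 4.33 FPKM in loaded Nb3 alloy and 39.4 ± 10.8 FPKM in non-loaded Nb3 alloy, a difference of -2.71 (SE 0.39, adjusted p = 0.000275); Cd72 is a receptor of Sema4d on B cells, whose markers also fell. Erbb2, a partner of B plexins, differed by 1.13 (SE 0.30, adjusted p = 0.00924), and L1cam, a partner of Nrp1, by 1.13 (SE 0.32, adjusted p = 0.0143). Of 4 tested VEGF-family ligands that bind neuropilins, 3 rose and 0 fell, beside 20.7% and 25.2% of all tested genes. Vegfa averaged 30.2 ± 4.59 FPKM in loaded Nb3 alloy and 12.5 ± 3.56 FPKM in non-loaded Nb3 alloy, with a difference of 1.23 (SE 0.23, adjusted p = 0.00134). Vegfb differed by 1.31 (SE 0.18, adjusted p = 0.000210) and Pgf by 1.14 (SE 0.30, adjusted p = 0.0104).

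Of 29 tested plexin effectors, the small GTPases, kinases and cytoskeletal proteins downstream of plexins, 13 rose and 3 fell, or 44.8% and 10.3%, where 20.7% and 25.2% of all tested genes did. In either direction that is 55.2% beside 45.8%. Rras averaged 45.99 ± 8.14 FPKM in loaded Nb3 alloy and 18.8 ± 2.38 FPKM in non-loaded Nb3 alloy, a difference of 1.24 (SE 0.15, adjusted p = 7.82e-05); Rras encodes R-Ras, on which the plexin GTPase-activating domain acts. Rnd3 averaged 36.3 ± 13.8 FPKM in loaded Nb3 alloy and 9.01 ± 2.94 FPKM in non-loaded Nb3 alloy, a difference of 1.88 (SE 0.34, adjusted p = 0.00105). Rnd2 differed by 1.59 (SE 0.21, adjusted p = 0.000137) and Mras by 1.30 (SE 0.18, adjusted p = 0.000236); Rnd proteins bind plexins directly. Mical2, of the MICAL family of actin-oxidising enzymes, fell (-1.10, SE 0.20, adjusted p = 0.00117). Of 6 tested proteases that cleave semaphorins, 2 rose and 0 fell (33.3%, below the 45.8% called of all tested genes): Mmp14 (2.05, SE 0.36, adjusted p = 0.000880), which releases Sema4d from the membrane in tumour cells, and the proprotein convertase Pcsk5 (1.43, SE 0.21, adjusted p = 0.000318). Loading beside cpTi and material without loading gave 0 calls in all 4 lists.

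Under loading, Nb3 alloy against cpTi gave calls for 33.3% of the receptors, 34.5% of the effectors and 33.3% of the proteases, about the 33.6% of all tested genes (14.7% higher and 18.9% lower). It gave 3 higher and 1 lower of the 12 receptors, with Trem2 (1.53, adjusted p = 0.00147), Itgb1 (0.64, adjusted p = 0.00300) and L1cam (1.05, adjusted p = 0.0275) higher and Cd72 (-1.92, adjusted p = 0.00381) lower. It gave 2 higher of the 4 VEGF-family ligands, Vegfb (0.95, adjusted p = 0.00276) and Vegfa (1.01, adjusted p = 0.00678), and 8 higher and 2 lower of the 29 effectors. Those with the smallest p were Rras (1.04, adjusted p = 0.000441), Rnd2 (1.29, adjusted p = 0.000966), Mical2 (-1.04, adjusted p = 0.00280), Mras (0.92, adjusted p = 0.00339) and Dpysl2 (0.79, adjusted p = 0.00352), the last a mediator of Sema3a signalling. Both called proteases were higher, Mmp14 by 1.51 (adjusted p = 0.00816) and Pcsk5 by 0.72 (adjusted p = 0.0232).

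Several members are neighbours in the genome. Positions are as deposited, and the build is not given in the sources used here. Chromosome 4 holds 8 of the 31 members, among them the secreted ligands Sema3c (chromosome 4, 17583212 to 17746534, minus strand), Sema3e (chromosome 4, 20299718 to 20555229, minus strand), Sema3a (chromosome 4, 21287982 to 21494432, minus strand) and Sema3d (chromosome 4, 22316779 to 22505930, minus strand). Sema3e and Sema3a lie 733 kb apart and Sema3a and Sema3d 822 kb apart. Of these 4, Sema3c was called for loading beside the Nb3 alloy, and Sema3d was tested and not called. Sema3f (chromosome 8, 108357629 to 108387083, minus strand) lies 74.7 kb from Sema3b on the same strand, with 3 genes between them. Both had higher levels in loaded than in non-loaded Nb3 alloy in every library, although Sema3b rests on at most 25 reads. Plxnb3 and Plxna3 lie 607 kb apart on chromosome X. Of the called members, Plxnd1 (chromosome 4, 149002784 to 149043244, minus strand), Sema4b (chromosome 1, 134149536 to 134177775, plus strand) and Plxnc1 (chromosome 7, 29390048 to 29543779, minus strand) overlap no other gene in the table. Plxna1 overlaps Chchd6 on its own strand and a gene on the opposite strand, and those reached at most 1.28 FPKM, so some of its reads are uncertain.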

How the data were processed

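RNA was measured in 12 libraries of bone around rat implants, 3 in each of 4 groups. Per the labels' protocols, RNA was isolated with TRIzol and polyadenylated RNA libraries were made with a NEBNext Ultra kit. The authors deposited FPKM, gene length and position for 33801 genes. Tools listed in the submitters' processing notes, with no step assigned to any of them, are DESeq2 1.20.0, featureCounts 1.5.0-p3, HISAT2 2.0.5, fastp and CASAVA 1.8. Genome build, annotation and strandedness were not given in the sources used here.

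Genes at 1 FPKM or more in at least 3 libraries (15268) went, as log2(FPKM + 1), into limma 3.58.1 (R 4.3.3, statmod 1.5.0). The fit held all 12 libraries and a mean for each group, with 8 residual degrees of freedom and trended, robust moderation. Calls were made at a Benjamini-Hochberg adjusted p under 0.05 over all tested genes. The product of FPKM and gene length moved in steps of whole reads for 100% of values within 0.01 read. Those reads gave the depth, 12.9 to 22.3 M per library, and served limma-voom and total-read scaling as alternatives. The other alternatives were recomputed size factors, quantile normalization, non-robust moderation, a pseudocount of 0.1, no filter, leaving out each library, a replicate block and a fit without the groups not compared. The procedure was tested on simulated data with a fixed spread, which can differ from that of these libraries. It recovered 41% to 50% of 2-fold changes in the simple comparisons and 10% for the interaction. Of 4-fold changes it recovered 98% to 99% and 81%. False calls made up 5.21% to 9.70% of the calls. A member that was not called can thus still differ.

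Members, lists and tests were chosen with earlier results of these data known. Every member is named; values by library are given for each member called in any comparison and for the 3 with the highest mean. Of each functional list, up to 5 called genes per comparison are named, by smallest p. Promoters and motifs were read from RefSeq tables (GRCr8), and figures were drawn with matplotlib 3.10.9 under Python 3.11.15 (pandas 2.3.3, numpy 2.4.6).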

Additional observations from a re-analysis of the deposited data

Results flagged for a closer look

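The difference in loading effect between Nb3 alloy and cpTi was itself past the threshold of limma (adjusted p under 0.05) for 9 of 27 tested members. Over the 25 members other than Plxnb3 and Sema4g, 6 were positive and 2 negative. It was also past it for 10 genes of the functional lists. By list these were 5 of 29 effectors (17.2%), 3 of 12 receptors (25%), 2 of 4 VEGF-family ligands and 0 of 6 proteases. Of all tested genes, 20.2% were past it in either direction. Among the members, the loading effect in Nb3 alloy minus that in cpTi was 2.09 for Sema3f, 1.88 for Plxnb3, 1.83 for Sema3c, 1.46 for Sema4c, 1.28 for Sema3g, 1.24 for Plxnd1, 1.04 for Sema6c, -1.03 for Sema4b and -1.25 for Plxnc1 on the log2(FPKM + 1) scale. Among the receptors and VEGF-family ligands it was 1.49 for Trem2, 1.42 for L1cam, 0.58 for Itgb1, 1.44 for Vegfa and 1.13 for Vegfb. Among the plexin effectors it was 1.71 for Rnd3, 1.36 for Rnd2, 1.27 for Rras, 1.06 for Mras and 0.66 for Cdk5. Plxnb3 passed the filter only with loaded Nb3 alloy libraries counted, and with no filter on any gene its difference was not called (adjusted p = 0.0560). Groups of 3 libraries were too small for a check for single samples far from the rest.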

How the results depend on the processing

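Of the 35 called member differences, 22 held in every alternative run for them (up to 21 each; 20 for the interaction, and 17 for Sema4g and 20 for Plxnb3, which some alternatives filtered out), 13 were lost in some and 0 changed sign. For loading beside the Nb3 alloy, 11 of 14 held in all. These counts include the calls of Plxnb3 and Sema4g, which the filter chose and which are not used as evidence. The loading call of Plxnb3 beside the Nb3 alloy is among those that held. Its calls for material under loading and for the interaction, and the loading call of Sema4g, are among those lost. Of uncalled member differences, 10 were called in some alternative and signs changed in 83 cases. Scaling by total reads moved the median of all genes to -0.17 for loading beside the Nb3 alloy and to -0.15 for material under loading. It called 2258 genes higher and 4676 lower for the first (32.6% higher, against 45.1%), with 10 members higher and 4 lower. For material under loading it called 1352 genes higher and 3676 lower (26.9% higher, against 43.7%), with 6 members higher, and for the interaction 842 and 2381 (26.1% higher, against 41.6%), with 4 members higher. Without the filter on low values, 6 of 31 members were higher for material under loading, with 2080 genes higher of 25414. For the interaction 4 members were positive, with 994 genes positive. That run called 2 genes for loading beside cpTi and 1 for material without loading. The compared groups alone gave 6 of 24 tested members higher for material under loading, with 1685 genes higher of 14080. For loading beside cpTi, quantile normalization called 3 genes, and limma-voom, a pseudocount of 0.1 and the compared groups alone called 0.

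Replicate numbers showed no sign of pairing the samples. Over 18 same-number pairs, deviations correlated at -0.25 to 0.11, and 0 of 12 libraries correlated best with their own number. With so few libraries per group, such correlations cannot exclude a pairing. A replicate block gave 11 members higher and 2 lower for loading beside the Nb3 alloy, with 2941 genes higher and 3627 lower of 15268. For material under loading it gave 8 and 2 members, with 1953 and 2638 genes. For the interaction it gave 6 and 2 members, with 1055 and 1553 genes. It lost the calls of Plxna2 for loading (adjusted p = 0.0619), Sema6b and Sema7a for material (0.0599 and 0.0596) and Sema3g for the interaction (0.0588). It called 0 genes for loading beside cpTi.

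Leaving out each library in turn gave 9 to 15 members higher and 2 to 3 lower for loading beside the Nb3 alloy (5595 to 6873 genes), 5 to 10 higher for material under loading (3442 to 5159 genes), and 3 to 7 positive and 1 to 2 negative for the interaction (1997 to 3095 genes). It gave 0 to 4 genes for loading beside cpTi and 0 to 4 for material without loading. The cause of these shifts was not tested. Depth limits Sema3a, Sema3b, Sema3e and Sema5b, which rest on few reads.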

Other observations

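Ratios of FPKM between members of the same library, picked after their values were seen, are given as a description. The ligand Sema7a over its receptor Plxnc1 was 28.8, 13.9 and 30.8 in loaded Nb3 alloy, 3.77, 3.75 and 2.15 in non-loaded Nb3 alloy, 3.22, 7.73 and 5.16 in loaded cpTi and 1.799, 4.93 and 3.36 in non-loaded cpTi. Every loaded Nb3 alloy library was above the other 9. Sema4c over Sema4b, both class 4 ligands, was 2.42, 2.88 and 3.47 in loaded Nb3 alloy, 0.284, 0.326 and 0.242 in non-loaded Nb3 alloy, 0.279, 0.895 and 0.439 in loaded cpTi and 0.286, 0.392 and 0.309 in non-loaded cpTi. Only in the 3 loaded Nb3 alloy libraries did Sema4c exceed Sema4b. In those 3 libraries, Sema7a and Sema4c were above the other 9, and Plxnc1 and Sema4b were below them. The separation of both ratios follows from those levels and adds no further result. Nrp2 over Nrp1, the pair of neuropilins, was 2.79, 0.736 and 1.67 in loaded Nb3 alloy, 1.58, 1.49 and 1.23 in non-loaded Nb3 alloy, 1.49, 1.77 and 1.70 in loaded cpTi and 0.937, 1.21 and 1.24 in non-loaded cpTi. The lowest ratio of all 12 was in loaded Nb3 alloy replicate 2 and the highest in replicate 1 of the same group.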
